A study of Mus musculus with 32 samples.

Results

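Canonical Wnt signalling in the developing mouse cortex was followed through 10 genes, chosen by their symbols: the co-receptor Lrp6, the effector Ctnnb1 (beta-catenin), the destruction-complex member Apc, the DNA-binding partners Tcf7, Lef1, Tcf7l1 and Tcf7l2, and the feedback and target genes Axin2, Nkd1 and Sp5. They are 10 of the 32285 genes in the deposited matrices, and all 10 passed the filter on low counts in every cell set analysed for the genotype comparison. Single cells of the dorsal telencephalon were profiled from C57BL/6J embryos that were either wild type (WT) or heterozygous for Chd8 (Chd8+/-, called Chd8 het below), at 4 embryonic stages: E12.5 and E14.5, then E16.0, and last E17.5. Each genotype and stage had 4 libraries, from males M1 and M2 and females F1 and F2, and each Chd8 het library had a WT partner of the same litter and sex, which gave 16 pairs among 32 libraries. The medial wall, where the hippocampus forms, had been dissected away, and the labels name no further allele or treatment. Levels are given as CPM, the UMIs (unique molecules) of a gene per 1000000 UMIs of the cells summed in 1 library.

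In canonical Wnt signalling, a Wnt ligand brings Frizzled and Lrp6 together and stops a cytoplasmic complex built on Apc and Axin proteins from marking beta-catenin for destruction. Beta-catenin then enters the nucleus and binds TCF/LEF proteins, of which Tcf7l1 acts mainly as a repressor and Lef1 mainly as an activator, and switches on targets that include the feedback inhibitors Axin2 and Nkd1 and the transcription factor Sp5. In the early dorsal telencephalon the cortical hem, at the medial edge, is a source of Wnt ligands, and Chd8, a chromatin remodeller, has been reported to bind beta-catenin and hold down its targets.

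Cells were summed into 3 groups in each library, by detection of at least 1 UMI of a marker gene. Sox2 marks radial glia, the cortical stem cells, Eomes marks the intermediate progenitors made from them, and Neurod6 marks the excitatory neurons. The Sox2-detected group held 53904 cells, the Eomes-detected group 31743 and the Neurod6-detected group 84986, of 138226 retained cells. The groups overlap: 43.6% of Eomes-detected cells also had a Sox2 UMI and 75.2% also had a Neurod6 UMI. Sums of this kind cannot tell fewer expressing cells apart from less RNA per cell, and free RNA in the droplets was not modelled.

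The libraries held 14710694 to 66499864 UMIs, with a median of 4017 to 10727 UMIs per barcode, and any pair of libraries shared 0.265% to 1.301% of barcodes. At 2 stages some libraries stood apart. At E12.5, Chd8 het M1, F1 and F2 had a median of 6158, 4166 and 6131 UMIs per barcode against 8762 to 10727 in the other 5 libraries, and the leading principal component of that stage (59.7% of variance) separated the same 3. At E17.5, WT M1, Chd8 het M1 and Chd8 het F1 were set apart on the leading component (67.1%). Malat1, a nuclear RNA, was at 30660, 35020 and 31720 CPM in them, at 23170 in WT F1 and at 14600 to 15680 in the rest. The sample codes in the labels differ between stages and their meaning is not given, so stage and preparation cannot be told apart. Partners in a pair always carried the same code, and at E12.5 pairs M1, F1 and F2 shared a code that pair M2 did not have. At E17.5 the libraries that stood apart shared their code with WT F1 only, and pairs M2 and F2 each had another. Fits given below without the 3 E17.5 libraries that stood apart keep WT F1.

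Promoter sequence was read from RefSeq (GRCm38.p6) as the 250 bases before each annotated start, which gave 14 windows for 8 members and none for Lrp6 or Apc. A TCF/LEF core was searched on both strands, as the letters CTTTG followed by AT, TT, AA or TA. The 2 windows shown belong to the targets that differed most (Sp5) and least (Axin2) between cells with and without the ligand Wnt8b, below, and capitals mark a core match on either strand.
Sp5, chr2:70474673-70474922, plus strand: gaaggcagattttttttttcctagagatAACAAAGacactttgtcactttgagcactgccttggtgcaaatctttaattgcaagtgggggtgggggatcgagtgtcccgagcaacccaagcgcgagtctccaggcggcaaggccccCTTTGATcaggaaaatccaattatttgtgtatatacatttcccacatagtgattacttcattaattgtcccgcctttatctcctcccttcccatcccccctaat
Axin2, chr11:108920099-108920348, plus strand: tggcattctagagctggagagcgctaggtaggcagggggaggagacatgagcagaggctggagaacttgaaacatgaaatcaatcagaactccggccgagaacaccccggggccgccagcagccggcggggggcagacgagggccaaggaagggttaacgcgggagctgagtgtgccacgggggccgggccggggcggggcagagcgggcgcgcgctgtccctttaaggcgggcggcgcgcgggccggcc
The Sp5 window holds 2 matches, CTTTGTT on the opposite strand 222 bases before the start and CTTTGAT on the same strand 104 bases before it. The Axin2 window holds none. Of the 14 member windows 3 hold a match (Sp5, 1 of 4 for Lef1 and 1 of 2 for Tcf7l2), beside 4874 of 32851 windows of the same length over all genes (14.84%), and 1.428% of all windows hold 2 or more. A match is a run of letters and not a measured binding site.

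On GRCm38 with GENCODE M21, all 10 are protein-coding genes. Ctnnb1 (ENSMUSG00000006932) lies at chr9:120929216-120960507, plus strand. Lrp6 (ENSMUSG00000030201) lies at chr6:134446476-134566965, minus strand. Apc (ENSMUSG00000005871) lies at chr18:34220924-34322552, plus strand. Among the TCF/LEF genes, Tcf7 (ENSMUSG00000000782) is at chr11:52252371-52283014 on the minus strand and Lef1 (ENSMUSG00000027985) at chr3:131110471-131224356 on the plus strand. Tcf7l1 (ENSMUSG00000055799) is at chr6:72626378-72789254 on the minus strand and Tcf7l2 (ENSMUSG00000024985) at chr19:55741820-55933654 on the plus strand. The feedback genes Axin2 (ENSMUSG00000000142), at chr11:108920349-108950783, and Nkd1 (ENSMUSG00000031661), at chr8:88521354-88594884, are on the plus strand, as is the compact Sp5 (ENSMUSG00000075304) at chr2:70474923-70477729. Antisense or same-strand transcripts overlap every member except Lrp6 and Sp5, and how reads in such overlaps were assigned is not given in the sources used here, which leaves those counts uncertain to that extent.

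Chd8 itself was lower in the Chd8 het libraries. In Sox2-detected cells at E12.5 it stood at 42.5, 40.0, 39.4 and 38.7 CPM in WT M1, M2, F1 and F2, and at 33.1, 33.0, 18.8 and 32.5 CPM in their Chd8 het partners. The groups did not overlap, and the level was lower in the Chd8 het partner in 15 of 16 pairs in each of the 3 cell groups. Sox2-detected cells had a mean log2 fold change over the stages of -0.26 (SE 0.0752; adjusted p 0.153 in edgeR's quasi-likelihood test, 0.00908 when pairs were blocked). In Eomes-detected cells it was -0.27 (0.0684, and 0.00254 with the block), and in Neurod6-detected cells -0.29 (0.145, and 0.00201 with the block).

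In WT Sox2-detected cells, the TCF/LEF genes other than Tcf7l2 and the target Sp5 fell between E12.5 and E17.5, and Apc rose. The make-up of this group changed with stage. Cells with Sox2 alone of the 3 markers were 10789 of 14325 in WT at E12.5 and 1236 of 2687 at E17.5. The part of this in the courses was not tested. Lef1 stood at 41.1, 44.3, 50.2 and 58.4 CPM in the 4 WT libraries at E12.5, 12.3 to 14.1 at E14.5, 3.78 to 7.07 at E16.0 and 1.29 to 2.18 at E17.5. No library of a stage overlapped the next stage, and the log2 fold change from E12.5 to E17.5 was -4.90 (SE 0.292, adjusted p 1.3e-16). Tcf7l1, the repressor, kept 29.1 ± 0.392 CPM (SD, n = 4) at E14.5 after 31.7 ± 1.89 at E12.5, and then stood at 17.02 ± 2.24 at E16.0 and 6.06 ± 2.43 at E17.5. Its change from E12.5 to E14.5 did not pass the test (-0.25, adjusted p 0.269), whereas it fell from E16.0 to E17.5 (-1.37, 5.5e-05) and over the whole course (-2.51, 1.81e-11). Tcf7, the T-cell factor that gave the family its name, stood at 3.93, 3.90, 4.68 and 4.47 CPM at E12.5 and at 0.600 to 2.01 at E14.5, and was still 1.82 ± 0.588 at E17.5 (-1.41 over the course, 0.000327). It is a low gene here, with 34 UMIs over the 4 WT libraries at E17.5.

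Sp5, a zinc-finger factor and direct target, had the steepest early fall. It stood at 17.1, 13.1, 20.6 and 32.3 CPM in WT M1, M2, F1 and F2 at E12.5, and at 1.48, 2.40, 0.111 and 0.257 CPM at E14.5. Every E12.5 library was above every later one, and the change from E12.5 to E14.5 was -4.34 (SE 0.411, adjusted p 5.9e-10). Over the 4 WT libraries 2 Sp5 UMIs were left at E16.0 and 18 at E17.5, so its later calls rest on these few molecules. Axin2, the scaffold that is both a target and an inhibitor, fell from 10.6 ± 2.96 CPM at E12.5 to 6.91 ± 1.49 at E14.5 (-0.74, 0.00847), stood at 6.73 ± 1.79 at E16.0 and at 10.2 ± 3.96 at E17.5. Its rise from E16.0 to E17.5 (+0.68, 0.047) rests on the library that stood apart: WT M1 was at 16.1 CPM and the other 3 at 7.54 to 8.75, and without the 3 E17.5 libraries that stood apart it was +0.34 (0.309). Nkd1, an inhibitor that binds Dishevelled, had a mean of 18.6 ± 3.40 CPM at E12.5 and fell to 14.8 ± 5.57 by E14.5 (-0.46, 0.0261), a call that was lost without WT F2 at E12.5 (-0.33, 0.141) or WT F1 at E14.5 (-0.26, 0.114). At E16.0 it stood at 10.7 ± 0.395 CPM (-0.59, 0.0288), a fall that was not seen in cells with Sox2 alone of the 3 markers (0.0397, 0.959), and it then rose to 19.2 ± 2.63 (+0.93, 0.000505). The 4 E17.5 libraries, at 15.7 to 21.4 CPM, lay above all 4 of E16.0, at 10.3 to 11.1, and the rise was +0.85 (0.00367) without the 3 libraries. Oligodendrocyte precursor markers moved at the same step: the summed level of 5 of them was 10.4 to 25.4 CPM in the WT Sox2-detected sums at E16.0 and 209 to 476 at E17.5, and their part in the rise was not tested.

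Upstream of these genes the courses differed. Ctnnb1 stood at 279 to 306 CPM in the WT Sox2-detected sums at E12.5, 376 to 420 at E14.5, 481 to 561 at E16.0 and 286 to 381 at E17.5. It rose from E12.5 to E14.5 (+0.29, SE 0.110, adjusted p 0.0372), but this call was lost without any 1 of the 8 WT libraries compared (adjusted p 0.0601 to 0.105) and in cells with Sox2 alone (+0.18, 0.258). It fell from E16.0 to E17.5 (-0.53, 0.000956), and the E17.5 and E12.5 libraries overlapped and the difference was 0.00 (0.986). Apc, which holds the destruction complex together, went from 17.8 ± 0.317 CPM at E12.5 to 28.7 ± 4.27, 35.6 ± 4.68 and 61.1 ± 29.3, a rise of +1.61 (2.44e-07). WT M1 stood at 105 CPM at E17.5 against 42.2 to 51.6 in the other 3, and without the 3 libraries that stood apart the rise was +1.196 (4.53e-09). Lrp6 stayed between 19.3 and 34.7 CPM in all 16 WT libraries, with stage means of 27.9, 27.5, 30.7 and 26.5. No Lrp6 contrast passed the test, but without the 3 E17.5 libraries the E17.5 level was lower than at E12.5 (-0.43, 0.00421). Tcf7l2 stood at 22.1, 23.5, 32.1 and 22.01 CPM by stage, and its fall from E16.0 to E17.5 (-0.45, 0.0228) missed the threshold without the 3 libraries (-0.40, 0.0507).

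By count, 7 of 10 members changed from E12.5 to E14.5 in Sox2-detected cells (2 higher, 5 lower) against 37.9% of all genes tested (20% higher, 17.9% lower). The 2 higher calls, Ctnnb1 and Apc, were both lost with no filter on low counts, with at least 2 Sox2 UMIs and in cells with Sox2 alone. From E14.5 to E16.0 it was 4, all lower, against 8.99% (4.81% higher, 4.18% lower), and from E16.0 to E17.5 it was 8 (4 higher, 4 lower) against 22% (12.5% higher, 9.54% lower). From E12.5 to E17.5 it was 5 (1 higher, 4 lower) against 59.2% (32% higher, 27.3% lower). The plot of WT levels by stage shows these courses in all 3 cell groups.

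**Figure D1:**
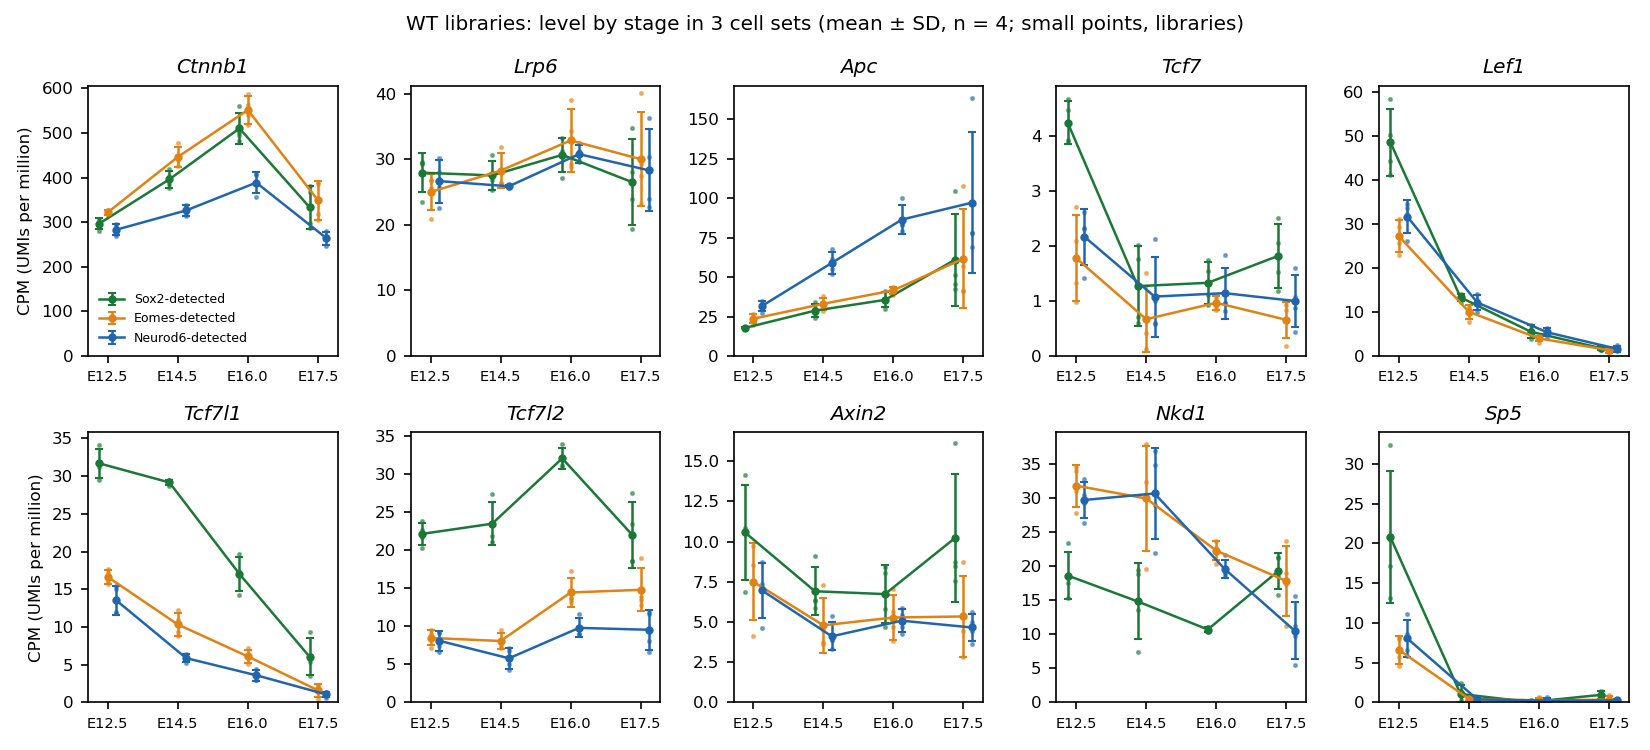
CPM (counts of a gene scaled to a common total of 1000000 UMIs) of each gene in the 4 WT libraries of each stage, in Sox2-detected, Eomes-detected and Neurod6-detected cells; large points and bars are the mean ± SD, n = 4, and small points are libraries. Lef1, Tcf7l1 and Sp5 are highest at E12.5 in all 3 groups, Apc has its highest mean at E17.5, and Lrp6 has stage means of 26.5 to 30.7 CPM in Sox2-detected cells.

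The Eomes-detected progenitors and Neurod6-detected neurons share many cells, so their courses are not independent of each other. In Eomes-detected cells 8 of 10 members differed between E17.5 and E12.5 (2 higher, 6 lower) against 49.9% of genes, and in Neurod6-detected cells 7 (1 higher, 6 lower) against 59.6%. Step by step, 6, 3 and 3 members changed in Eomes-detected cells, beside 29.6%, 6.56% and 7.5% of genes, and 5, 2 and 4 in Neurod6-detected cells, beside 37.4%, 11.5% and 5.61%. In all retained cells 7, 4 and 3 changed step by step, beside 53.3%, 12.4% and 17.1%, and 9 between E12.5 and E17.5, beside 67.3%. Lef1 went from 27.2 to 1.31 CPM in Eomes-detected cells (-4.55) and from 31.6 to 1.58 in Neurod6-detected cells (-4.44). Tcf7l1 went from 16.6 to 1.61 (-3.46) and from 13.5 to 1.06 (-3.77), and Sp5 from 6.62 to 0.349 (-4.34) and from 8.05 to 0.249 (-5.13). Each of these genes fell in all 3 groups, as did Tcf7 (adjusted p 0.032 and 0.0278 in the Eomes- and Neurod6-detected sums).

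Nkd1 and Axin2 differed from their course in Sox2-detected cells. Nkd1 stood at 26.3 to 32.7 CPM in WT Neurod6-detected cells at E12.5, 21.8 to 36.9 at E14.5, 18.6 to 21.6 at E16.0 and 5.52 to 15.6 at E17.5, so that the E17.5 libraries lay below those of all other stages (-1.58, adjusted p 2.77e-06). In Eomes-detected cells it fell too (-0.96, 0.000138), but the sign turned in cells with Eomes alone (+0.11, 0.885). Axin2 was lower at E17.5 than at E12.5 in Eomes-detected (-0.63, 0.0494, and 0.0557 with DESeq2's size factors) and Neurod6-detected cells (-0.66, 0.00412). Apc rose in both, from 23.6 to 61.8 CPM (+1.25, 1.99e-05) and from 31.6 to 97.2 CPM (+1.54, 2.76e-06). WT M1 was again far above the rest at E17.5, at 164 CPM in Neurod6-detected cells beside 69.0 to 78.0, and without the 3 libraries that stood apart the Neurod6-detected rise was +1.15 (2.2e-08). Ctnnb1 had its highest mean at E16.0 in all 3 groups, 551 CPM in Eomes-detected and 389 CPM in Neurod6-detected cells, and fell from there to E17.5 in each. Tcf7l2 rose in the Eomes-detected sums (8.48 to 14.8 CPM, +0.69, 0.00999). In cells with Neurod6 alone, the change from E12.5 to E17.5 was 0.00 (0.99) for Axin2 and -0.28 (0.722) for Tcf7, and Tcf7l2 rose (+1.57, 0.00783). In cells with Eomes alone 2 members were called, Apc higher (+1.33, 0.0161) and Lef1 lower (-3.50, 0.000534). Cells with 1 marker and cells with several were not tested against each other.

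To compare the cell groups without counting a cell more than once, sums were made of cells with exactly 1 of the 3 markers, with the library as a block. Such Eomes-only cells were few, 2589 beside 32833 Sox2-only and 53874 Neurod6-only cells. Neurod6-only neurons differed from Sox2-only progenitors in 10 of 10 members, 2 higher and 8 lower, where 87.7% of all genes were called, 44.4% higher and 43.3% lower. The calls of Lrp6, Lef1 and Sp5 did not hold under every setting, as given beside their values. The repressor Tcf7l1 and its relative Tcf7l2 had the largest differences. At E12.5 in WT, Tcf7l1 stood at 37.3, 31.3, 33.1 and 33.5 CPM in Sox2-only cells and at 3.12, 2.21, 3.66 and 2.24 in Neurod6-only cells of the same libraries, and over all stages the log2 difference was -4.06 (SE 0.0881, adjusted p 7.35e-56). Tcf7l2 was lower too (-3.04, SE 0.0923, adjusted p 1.99e-44). Axin2 (-1.08), Tcf7 (-0.89) and Ctnnb1 (-0.34) were lower in the neurons too.

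The remaining members were less certain. Lef1 was lower by a small margin (-0.24, 0.015), which was -0.07 (0.628) without the 3 E17.5 libraries that stood apart and was called in 24 of 32 runs with 1 library left out. Lrp6 was at -0.08 (0.0326), but at -0.04 (0.329) with DESeq2's size factors, and with 1 library left out it ran from -0.107 to 0.0286 and was called in 6 of 32 runs. In these runs the median over all genes also moved, from 0.00 to 0.13 beside 0.02 in the full fit, a range wider than the size of Lrp6's difference. The TMM scaling is set anew in each run, and its part was not tested. Sp5 differed by -1.74 (SE 0.396, 0.0049) as a mean over stages, yet 3016 of its WT UMIs in Sox2-only cells were from E12.5 and 29, 1 and 10 from the later stages. Without WT M1 at E16.0, the library with that 1 UMI, the group is at 0 and the mean over stages has no usable test.

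Apc and Nkd1 went the other way. Apc was higher in Neurod6-only cells by 1.496 (SE 0.0456), with WT E12.5 values of 48.3, 49.3, 57.7 and 53.1 CPM against 16.5 to 17.1 in Sox2-only cells, and Nkd1 by 0.95 (0.109). The Eomes-only cells had 6 members that differed from Sox2-only cells, 2 higher and 4 lower, beside 49% of genes (15.1% higher and 33.9% lower). Ctnnb1 (+0.38, SE 0.0346) and Nkd1 (+1.05, 0.194) were higher there, and Tcf7l1 (-1.62), Tcf7l2 (-1.25), Lef1 (-0.67) and Lrp6 (-0.21, adjusted p 0.0322) were lower. The Lrp6 call was lost with DESeq2's size factors (-0.13, 0.242) and held in 15 of 32 runs with 1 library left out. Tcf7l1 was lower in all 32 such runs, but the run without WT F2 at E17.5 (-2.47) is not a usable estimate. That library held both of its UMIs in that group of Eomes-only cells, which is then at 0. Apc did not pass that test (-0.10, adjusted p 0.473), and Sp5, with 0 UMIs in the Eomes-only cells of E16.0 and E17.5 in both genotypes, could not be tested usefully. Over all genes in this contrast 2123 were higher and 4788 lower, and 2762 and 3747 with DESeq2's size factors, which moved the median over all genes from -0.15 to -0.07. From Eomes-only to Neurod6-only cells 5 members differed, beside 68.7% of genes (40% higher and 28.7% lower): Apc was higher (+1.59), and Ctnnb1 (-0.72), Tcf7l1 (-2.44), Tcf7l2 (-1.79) and Axin2 (-0.82) were lower. Tcf7l1 rests there on 2 UMIs in each genotype at E17.5 in Eomes-only cells, and without WT F2 of that stage its mean over stages has no usable test. Of these exclusive groups, Ctnnb1 was thus highest in Eomes-only cells. Tcf7l1 and Tcf7l2 were lower in Eomes-only than in Sox2-only cells and lower again in Neurod6-only cells. Whether the few Eomes-only cells stand for a step between the other groups was not tested.

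Within Sox2-detected cells, those with at least 2 UMIs of 7 cell-cycle genes were set against those with none, library by library. Of the 8 members with enough counts, 4 were higher in cycling cells and 2 lower, where 40.2% and 38.8% of all genes were higher and lower. Tcf7l1 was higher by 1.29 (SE 0.107, adjusted p 1.12e-14), Tcf7l2 by 1.04, Axin2 by 0.81 (2.11e-09) and Lef1 by 0.59. Apc was lower (-0.76, 5.62e-16). Nkd1 was lower as a mean over stages (-0.39, 0.00119), but in cells without Eomes and Neurod6 UMIs it was +0.16 (0.38), and its stages differed. It was higher in cycling cells in 0, 0 and 1 of 8 libraries at E12.5, E14.5 and E16.0 and in 7 of 8 at E17.5, where it stood at 20.7 against 16.1 CPM. Ctnnb1 (-0.02) and Lrp6 (0.00) did not pass the test as means over stages that went opposite ways. Ctnnb1 was higher in cycling cells in 0 of 8 libraries at E16.0 (494 against 556 CPM) and in 7 of 8 at E17.5 (330 against 319). Lrp6 was higher in 6 of 8 at E12.5 (29.0 against 25.3) and in 0 of 8 at E17.5 (26.7 against 35.7). These differences between stages were not tested. The cycling and other cells were not matched for depth, and its part was not tested. Of Sox2-detected cells 29.3% also had a Neurod6 UMI, and cells with a second marker were a larger part at later stages. In WT, 10789 of 14325 Sox2-detected cells had Sox2 alone at E12.5, and 1236 of 2687 at E17.5. The value in cells without Eomes and Neurod6 UMIs is given here for Nkd1 only.

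Wnt8b is a ligand made in the medial pallium and hem, and at E12.5 a share of Sox2-detected cells carried at least 1 of its UMIs. These 92 to 784 cells per library were set against the other Sox2-detected cells of the same 8 libraries. Sp5 stood at 63.0, 36.4, 56.2 and 78.4 CPM in the Wnt8b-detected cells of WT M1, M2, F1 and F2 and at 11.5, 9.69, 13.8 and 17.1 CPM in the other cells. In the Chd8 het libraries it stood at 55.0, 25.5, 50.4 and 38.7 against 8.53, 6.62, 6.89 and 11.2 CPM. The lowest Wnt8b-detected sum lay above the highest of the other sums, and the difference was 2.17 on the log2 scale (SE 0.0776, adjusted p 8.27e-15).

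The other feedback genes and 2 of the DNA-binding partners moved with Sp5. Nkd1 was at a mean of 33.3 CPM against 13.4 (+1.37, SE 0.192, 0.00116), Axin2 at 16.3 against 7.74 (+1.09, 6.78e-14), Lef1 at 92.2 against 43.9 (+1.03, 1.21e-25) and Tcf7 at 5.62 against 3.03 (+0.91, 2.64e-07). Each of these 5 genes was higher in the Wnt8b-detected cells in 8 of 8 libraries. Tcf7l1 went the opposite way, at 20.4 against 29.6 CPM, lower in 8 of 8 libraries (-0.50, 1.55e-06), as did Tcf7l2 (-0.26, 0.00134) and, by a small margin, Ctnnb1 (252 against 267 CPM, -0.08, 0.0137), a call that was lost in cells without Eomes and Neurod6 UMIs (-0.03, 0.509). Lrp6 (0.917) and Apc (0.115) did not pass the test. In this contrast 8 of 10 members were called, 5 higher and 3 lower, where 36.1% of all genes were called, 17.8% higher and 18.2% lower. The Wnt8b-detected cells were deeper, with a median of 12810 UMIs against 9025 in WT M1 and 7251 against 4633 in Chd8 het F1, and the part of depth in the difference was not tested.

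**Figure D2:**
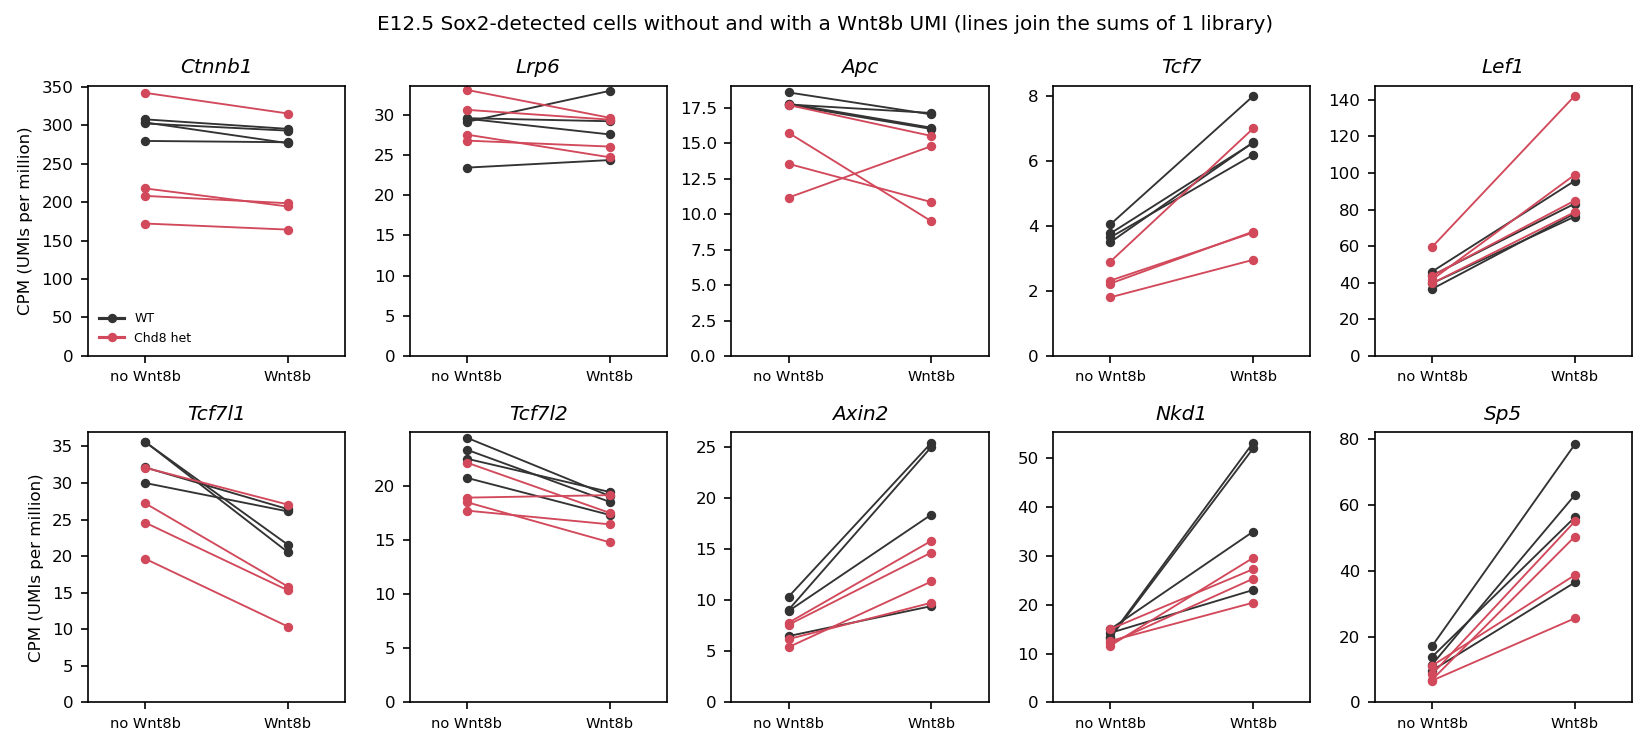
CPM of each gene at E12.5 in Sox2-detected cells without and with a Wnt8b UMI; each line joins the sums of 1 library, 4 WT and 4 Chd8 het. Sp5, Nkd1, Lef1, Axin2 and Tcf7 rise in all 8 libraries and Tcf7l1 falls in all 8.

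Between genotypes, none of the 10 members passed the test in any cell group, either averaged over stages or at any stage. The background is small: averaged over stages, 0.478% of genes tested were called in Sox2-detected, 0.274% in Eomes-detected and 0.213% in Neurod6-detected cells, and 0.346% in all retained cells. At E12.5 the shares were 1.44%, 0.465%, 0.00686% and 0.359% in the same order. They were 0% in each group at E14.5, at most 0.0217% at E16.0 (Sox2-detected cells, with 0.00762% in Eomes-detected cells) and at most 0.0152% at E17.5 (Eomes-detected cells). Without adjustment, p was under 0.05 in 2 members averaged over stages in Sox2-detected cells (Tcf7 and Lrp6), beside 8.78% of all genes, and in 5 at E12.5 (Ctnnb1, Tcf7, Axin2, Nkd1 and Sp5), beside 17.8%. DESeq2 called 1 member in 1 contrast, Lef1 in Neurod6-detected cells at E17.5, where 0.00686% of genes were called. Tests of whether the genotype difference varied with stage or sex called 0 members and 0 genes.

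**Figure D3:**
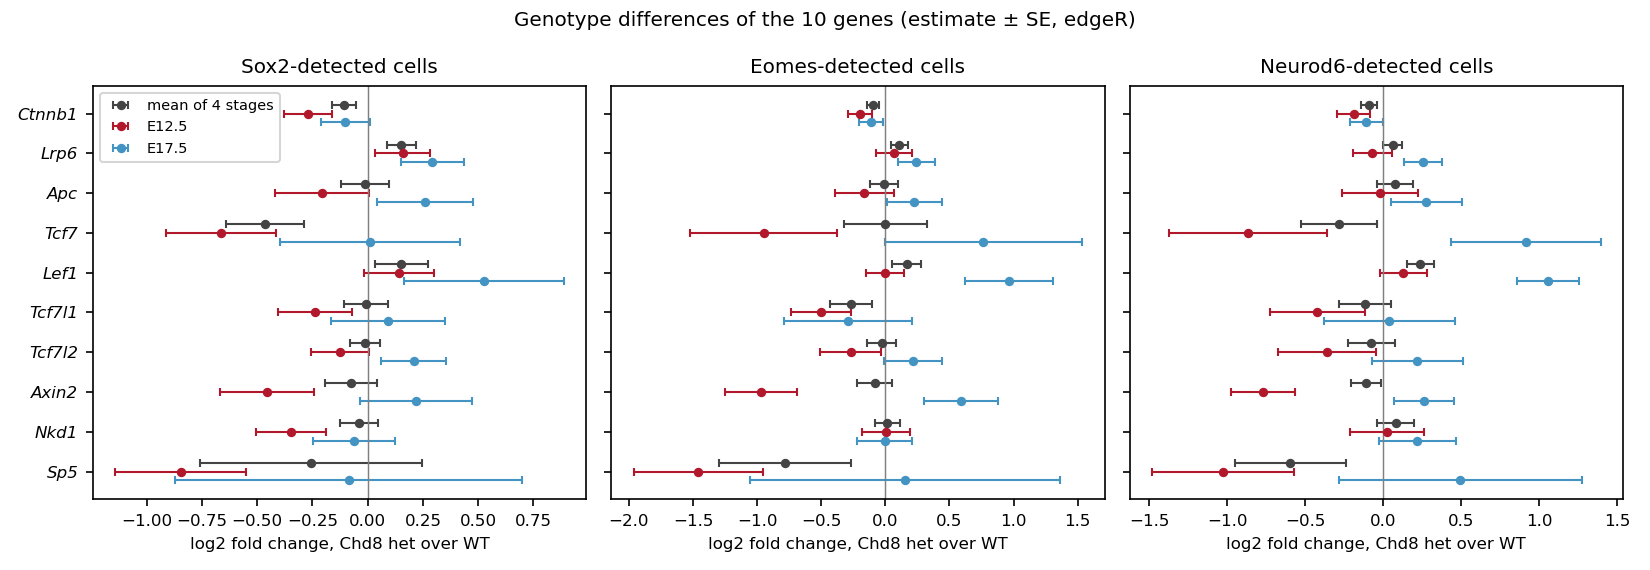
Log2 fold change of Chd8 het over WT for each gene (edgeR estimate ± SE) averaged over 4 stages, at E12.5 and at E17.5, in the 3 cell groups. At E12.5, 8 of 10 estimates lie below 0 in each group, and at E17.5 7 of 10 lie above 0 in Sox2-detected and 9 of 10 in Neurod6-detected cells; none passed the test.

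At E12.5 most members leaned lower in the Chd8 het embryos, with a median log2 fold change of -0.25 over the 10 in Sox2-detected cells, -0.23 in Eomes-detected and -0.28 in Neurod6-detected cells. The medians over all genes were -0.02, -0.01 and -0.03. The make-up of the groups differed too. Sox2-detected cells made up 66.5% to 75.2% of cells in WT and 45.0% to 71.1% in Chd8 het (exact permutation p = 0.0571, adjusted 0.686). With each cell thinned to 1000 UMIs the means were 19.5% and 18.5% (exact permutation p = 0.486). Cells with none of the 3 markers had mean shares of 9.79% and 20.2%. The part of this in the lean was not tested. Sp5 had the largest estimate in Sox2-detected cells, followed by Tcf7, Axin2 and Nkd1. Sp5 in Sox2-detected cells stood at 17.1, 13.1, 20.6 and 32.3 CPM in WT M1, M2, F1 and F2 and at 12.3, 8.30, 9.97 and 12.9 CPM in their Chd8 het partners. All 4 Chd8 het libraries lay below all 4 WT libraries, and each lay below its own partner. On the log2 scale the change was -0.85 (SE 0.296, adjusted p 0.121), or -0.79 (0.00613) when pairs were blocked. With Sox2 detected after thinning to 1000 UMIs it was -1.10 (0.0440), beside 0.461% of genes called. That was the only unblocked setting that called Sp5 in this group.

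Axin2 stood at 10.8, 6.87, 10.5 and 14.1 CPM in WT and at 8.19, 6.52, 5.88 and 8.31 in Chd8 het. WT M2 was the exception that made the groups overlap, and each Chd8 het library was below its partner, in M2 by a small margin. The change was -0.46 (SE 0.212, adjusted p 0.252), or -0.42 (0.0354) with the block. Nkd1 stood at 17.49, 15.4, 18.2 and 23.4 CPM in WT and at 13.2, 16.1, 12.9 and 12.95 in Chd8 het. Pair M2 went against the other 3, which were lower in Chd8 het (-0.35, 0.248; -0.33, 0.0438 with the block).

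Among the DNA-binding partners, Tcf7 was at 3.93, 3.90, 4.68 and 4.47 CPM in WT and 2.36, 3.27, 1.89 and 2.42 in Chd8 het, with no overlap between the groups. Its change was -0.66 (SE 0.248, adjusted p 0.144), or -0.66 (0.0358) with the block. Tcf7l1 stood at 34.1, 29.5, 31.2 and 31.9 CPM in WT and 23.8, 31.7, 19.0 and 26.5 in Chd8 het (-0.24, 0.477), where only M2 was above its partner. Lef1, at 41.1 to 58.4 CPM in WT and 43.1 to 65.4 in Chd8 het, overlapped in part, with Chd8 het F1 above and WT M1 below all libraries of the other genotype (+0.14, 0.691), and Tcf7l2 was at 20.3 to 23.9 and 17.7 to 21.8 (-0.12, 0.663).

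Ctnnb1 depended on a single library. It stood at 301, 301, 306 and 279 CPM in WT and at 208, 340, 172 and 217 CPM in Chd8 het M1, M2, F1 and F2. Chd8 het M2 was the highest of all 8 libraries, and the other 3 were lower than every WT library. The change was -0.27 (SE 0.110, adjusted p 0.18), -0.30 (0.0178) with the block and -0.47 (0.00148) without Chd8 het M2, where 13.3% of all genes were called. Lrp6 (+0.16, 0.544), at 23.5 to 29.5 CPM in WT and 26.7 to 32.8 in Chd8 het, and Apc (-0.21, 0.654), at 17.75 ± 0.317 CPM in WT and 14.4 ± 2.62 in Chd8 het (SD, n = 4), where M2, at 17.52, was level with its partner, did not pass the test under either fit.

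**Figure D4:**
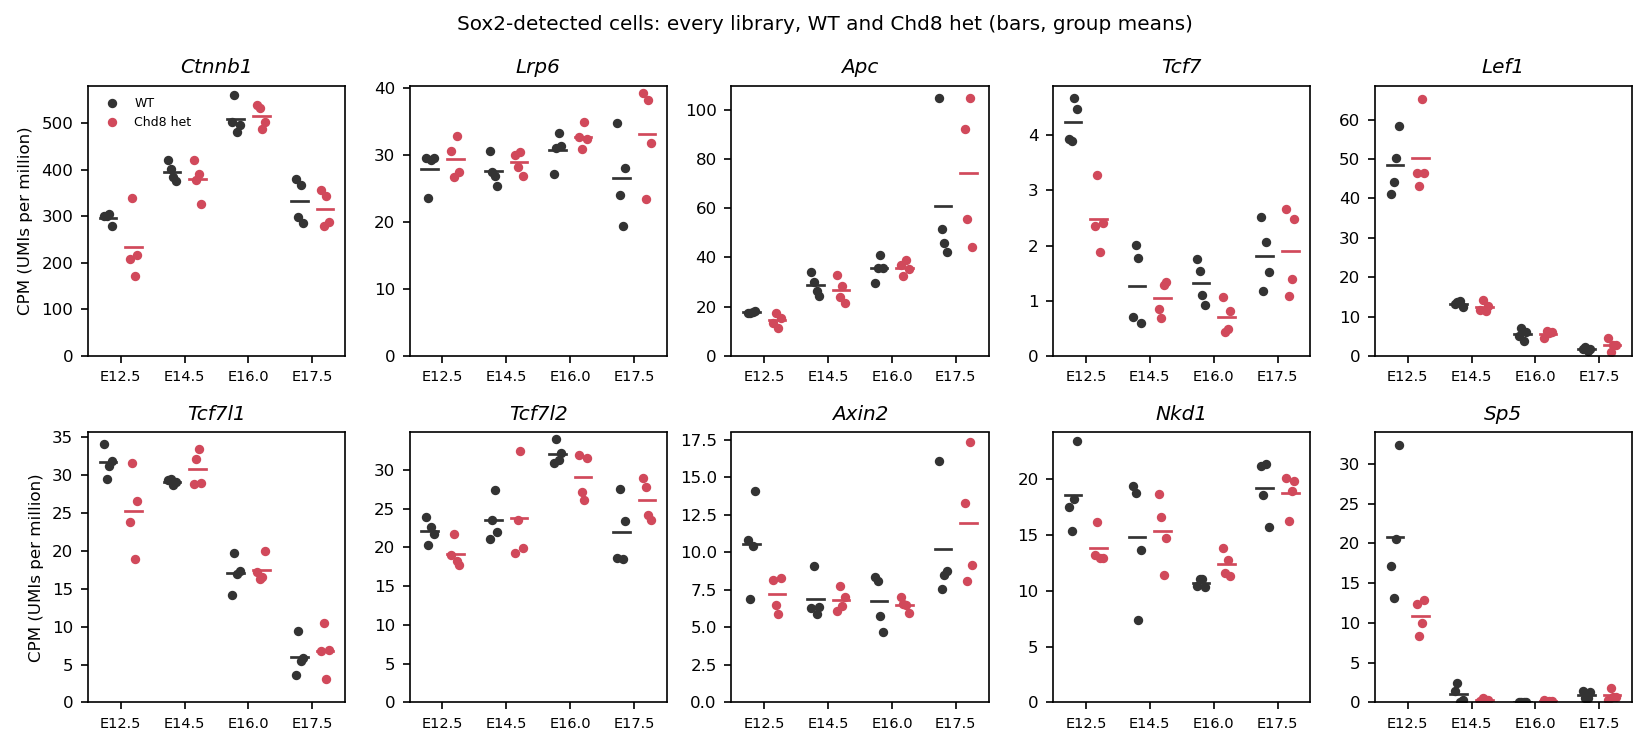
CPM of each gene in Sox2-detected cells in every library, WT and Chd8 het, by stage; bars are group means, n = 4. At E12.5 the Chd8 het points of Sp5 and Tcf7 lie below all WT points, while 1 Chd8 het library lies above all WT libraries for Ctnnb1.

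With the pair as a block, 5 members (Ctnnb1, Tcf7, Axin2, Nkd1 and Sp5) were thus lower in Sox2-detected cells at E12.5. That fit called 15.6% of all genes tested, and 6.73% lower. In all retained cells it called 4 of them (Ctnnb1, Tcf7, Axin2 and Sp5) where 13.2% of genes were called. The count differed with the pairs kept: it was 6 of 10 without pair M2, the pair with its own code (29.6% of genes called), 1 without pair M1 (Sp5, -0.94, 0.0256, 0.917% of genes) and 0 without F1 (0.372%) or F2 (5.46%). The shallow libraries that stood apart are in 3 of these 4 pairs, all of them Chd8 het, so genotype and whatever set them apart cannot be told apart within those pairs. In pair M2, whose partners had medians of 10089 and 10727 UMIs per barcode, Sp5 was 13.1 against 8.30 CPM and Axin2 6.87 against 6.52, while Ctnnb1 was 301 against 340.

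Eomes-detected and Neurod6-detected cells at E12.5 showed the same lean in Axin2 and Sp5. In Eomes-detected cells Axin2 stood at 7.54, 4.16, 8.57 and 9.73 CPM in WT and at 3.45, 3.84, 2.89 and 3.97 in Chd8 het. The groups did not overlap, and the change was -0.97 (SE 0.280, adjusted p 0.0805), or -0.81 (0.0359) with the block, under which 6.75% of genes were called. Sp5 was at 5.65, 4.63, 7.99 and 8.19 against 1.15, 4.02, 0.963 and 1.59 CPM, also without overlap (-1.46, 0.134). Without Chd8 het M2, whose level was close to its partner's, Sp5 differed by -2.23 (0.019), in a fit that called 9.2% of all genes. Tcf7l1 was at 15.7 to 17.7 CPM in WT and at 8.51, 18.8, 3.37 and 9.52 in Chd8 het, so that M2 was above all WT libraries and the other 3 below them (-0.50, 0.318; -0.9959, 0.00708 without Chd8 het M2). In Neurod6-detected cells Axin2 stood at 7.34, 4.62, 7.19 and 8.74 against 4.10, 4.78, 2.67 and 3.39 CPM (-0.77, 0.11), and Sp5 at 6.66, 5.85, 8.63 and 11.1 against 2.05, 6.59, 2.18 and 3.25 (-1.02, 0.332). In both genes pair M2 was slightly higher in Chd8 het and the other 3 pairs were lower, and with the block 0 members and 4.5% of genes were called. Without Chd8 het M2, 4 members were called lower in Neurod6-detected cells, Axin2 (-0.88, 0.0166), Tcf7l1 (-1.05, 0.0194), Tcf7l2 (-1.13, 0.0215) and Ctnnb1 (-0.33, 0.0297), beside 9.32% of all genes. At that stage, cells with Neurod6 alone held 29 Sp5 UMIs in WT and 35 in Chd8 het, and 40 and 46 of Tcf7l1. Their sums held 2675712 to 4803251 UMIs per library in WT and 1945672 to 4351350 in Chd8 het, so neither gene was lower in these pooled counts. Cells with Eomes alone held 14 and 4 UMIs of Sp5 and 52 and 34 of Tcf7l1.

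Markers of the hem and medial pallium also leaned lower in Chd8 het at E12.5. The sum of 7 of them (Wnt3a, Wnt2b, Wnt8b, Lmx1a, Rspo1, Rspo2 and Rspo3) in Sox2-detected cells at E12.5 was 37.1, 26.5, 39.4 and 135 CPM in WT and 18.6, 19.9, 24.2 and 13.6 in Chd8 het. WT F2 was far above the rest, and no Chd8 het library reached the lowest WT library. Wnt3a was at 0 there in all 4 Chd8 het libraries and in WT M2. In all retained cells it stood at 0.232, 0, 0.158 and 2.01 CPM in WT M1, M2, F1 and F2. In Eomes-detected cells the sums were 21.3 to 159 and 6.67 to 19.98 CPM, and in Neurod6-detected cells 22.7 to 140 and 10.3 to 23.0. Markers of meningeal fibroblasts leaned the same way in all retained cells, at 90.5 to 159 CPM in WT and 60.8 to 99.6 in Chd8 het, with an overlap. The part of these other cells in the member differences was not tested. Wnt8b alone stood at 15.7, 15.4, 20.5 and 53.9 CPM in WT and 11.9, 9.99, 12.3 and 8.91 in Chd8 het Sox2-detected cells.

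The share of Sox2-detected cells with a Wnt8b UMI was 7.57%, 9.03%, 11.4% and 19.0% in WT and 5.39%, 5.79%, 4.86% and 4.54% in Chd8 het (exact two-sided permutation p = 0.0286 over unpaired libraries, the smallest that 4 against 4 can give). Within the 4 matched pairs it was lower in Chd8 het in 4 of 4, where an exact two-sided sign-flip permutation test gives p = 0.125, the smallest that 4 pairs can give. After each cell was thinned to 1000 UMIs, because Chd8 het M1, F1 and F2 were shallower, it was 0.823%, 1.29%, 1.54% and 3.72% against 1.05%, 0.678%, 0.844% and 0.729%. The thinned groups overlapped, with means of 1.84% and 0.825% (exact permutation p = 0.0857, and 0.25 within pairs, with 3 of 4 lower). With Wnt8b-detected cells left out, the change of Sp5 in Sox2-detected cells was -0.56 in place of -0.85, that of Axin2 -0.27 in place of -0.46 and that of Nkd1 -0.04 in place of -0.35. Detection of Wnt8b depends on depth, and cells were not matched for depth before they were left out. Such cells may therefore remain more often in the shallower Chd8 het libraries, so these fits cannot decide the part of hem cells. With the pair as a block and those cells left out, Sp5 (-0.55, adjusted p 0.0290) and Ctnnb1 (-0.30, 0.0204) were called, beside 13.9% of genes. Axin2 (-0.26, 0.183), Nkd1 (-0.04, 0.834) and Tcf7 were not. Without WT F2, the library with the most hem signal, the unblocked change in Sox2-detected cells was -0.55 (0.399) for Sp5, -0.28 (0.558) for Axin2 and -0.22 (0.556) for Nkd1. Tcf7 (-0.64, 0.262) and Ctnnb1 (-0.30, 0.228) stayed near their changes in the full fit. In Eomes-detected cells the run without WT F2 gave -1.36 (0.31) for Sp5 and -0.83 (0.237) for Axin2. In Neurod6-detected cells it gave -0.83 (0.554) for Sp5 and -0.63 (0.276) for Axin2, and the full-fit values of both groups are given above.

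**Figure D5:**
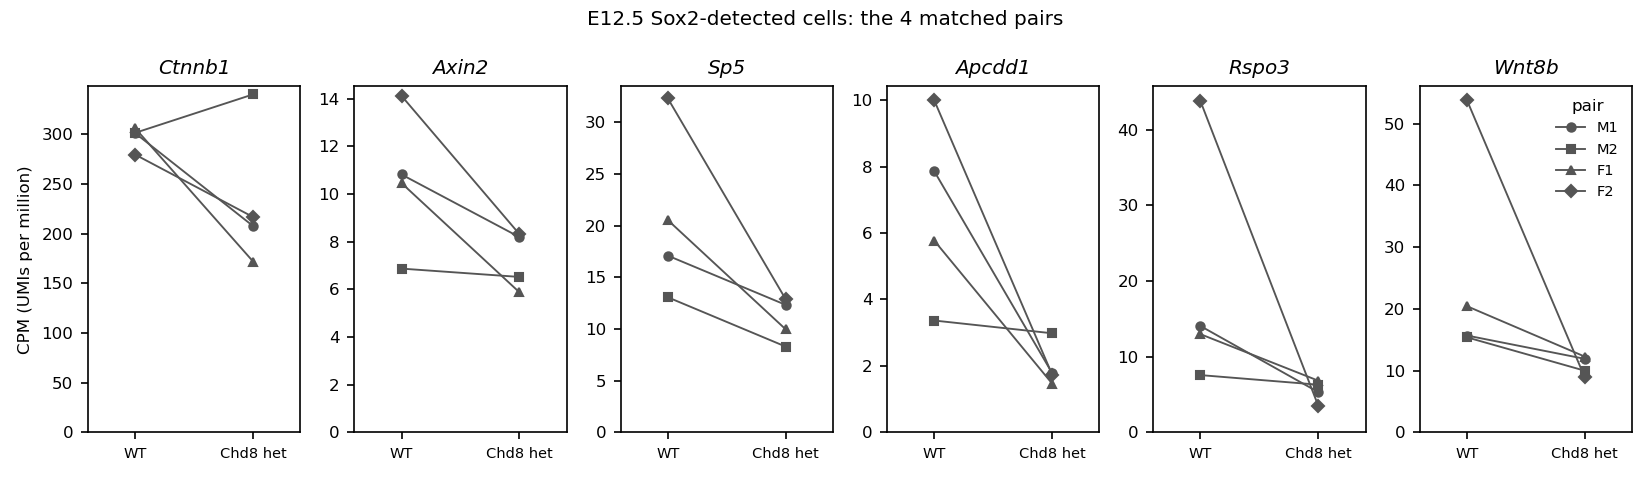
CPM in Sox2-detected cells at E12.5 in the 4 litter- and sex-matched pairs, for Ctnnb1, the targets Axin2, Sp5 and Apcdd1, and the ligand-side genes Rspo3 and Wnt8b; each line joins the partners of 1 pair. Sp5, Axin2, Rspo3 and Wnt8b are lower in the Chd8 het partner in every pair, and Ctnnb1 is higher in pair M2.

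At the middle stages the medians were closer to 0. In Sox2-detected cells the median log2 fold change of the 10 members was -0.04 at E14.5, with 4 members above 0, and 0.03 at E16.0, with 7 above 0. In Eomes-detected cells it was 0.00 and -0.09, with 5 and 4 above 0, and in Neurod6-detected cells -0.05 and -0.06, with 4 and 3 above 0. Ctnnb1 stood at 376 to 420 CPM in WT and 327 to 421 in Chd8 het at E14.5, and at 481 to 561 and 487 to 540 at E16.0. Tcf7 at E16.0 was at 0.917 to 1.75 CPM in WT and 0.425 to 1.07 in Chd8 het, with an overlap, from 55 and 32 UMIs in all.

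At E17.5 the medians were above 0, at 0.15, 0.22 and 0.26 in the Sox2-, Eomes- and Neurod6-detected sums, with 7, 7 and 9 of 10 members above 0. The medians over all genes were 0.007, -0.01 and 0.007. The libraries that stood apart at this stage were WT M1 and Chd8 het M1 and F1, and the medians without them are not given here. Lef1 in Neurod6-detected cells stood at 1.29, 1.27, 1.26 and 2.49 CPM in WT and at 3.02, 3.73, 2.79 and 3.78 in Chd8 het. The groups did not overlap, WT F2 being the highest of its group. The change was 1.06 (SE 0.201, adjusted p 0.158) in edgeR, 0.0314 with DESeq2 and 0.00465 without WT F2, on a level that had been 31.6 CPM in WT at E12.5. In Eomes-detected cells Lef1 differed by 0.96 (0.853) and in Sox2-detected cells by 0.53. Axin2 in Eomes-detected cells was at 2.83 to 8.74 CPM in WT and 5.47 to 12.2 in Chd8 het, where the 2 highest Chd8 het libraries, M1 and F1, were those that stood apart.

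The rest of the pathway was read from lists of 111 further genes in 6 roles (ligands, receptors, cytoplasm, nucleus, inhibitors and other targets), of which 98 were tested in all retained cells. At E12.5, 4 of the 98 were lower in Chd8 het and 0 higher, beside 0.359% of all genes, and at other stages and averaged over stages 0 were called. They were the R-spondins Rspo2 (1.75 against 0.109 CPM, log2 fold change -3.77, SE 0.902, adjusted p 0.0387) and Rspo3 (23.0 against 7.18 CPM, -1.60, 0.0481), which amplify Wnt signals through LGR receptors, and the inhibitors Apcdd1 (7.28 against 2.99, -1.20, 0.0324) and Dkk3 (3.96 against 1.95, -0.94, 0.0481). The median over the 14 tested ligands was -0.76, over 17 receptors -0.20, over 19 cytoplasmic genes 0.02 and over all genes -0.03. In Sox2-detected cells Rspo3 stood at 14.1, 7.57, 12.97 and 43.7 CPM in WT and 5.30, 6.30, 6.82 and 3.45 in Chd8 het (-1.79, 0.02), with no overlap. Apcdd1, a membrane inhibitor and target, was at 7.86, 3.37, 5.77 and 10.0 against 1.79, 2.98, 1.47 and 1.74 CPM (-1.62, 0.0182), and each Chd8 het library was again below all WT libraries. Wnt5a (-1.95, 0.0353) and Dkk3 (-1.08, 0.0353) were the other 2 called there, and in Eomes-detected cells Rspo3 (-2.28), Wnt5a (-1.73), Wnt8b (-1.73) and Apcdd1 (-1.43) were. None was called in Neurod6-detected cells. Rspo2, Rspo3 and Wnt8b are among the hem markers above. Rspo2 in all retained cells stood at 0.929, 0.130, 0.630 and 5.31 CPM in WT M1, M2, F1 and F2 and at 0, 0.171, 0.107 and 0.161 CPM in Chd8 het, so that the groups overlapped and WT F2 was far above the rest. Without WT F2 the change was -2.12 (adjusted p 0.201) for Rspo2, -1.05 (0.166) for Rspo3, -1.01 (0.14) for Apcdd1 and -0.62 (0.166) for Dkk3. In all retained cells 0 of the 4 were called without any 1 of WT M1, F1 and F2 or Chd8 het M1, F1 and F2. Apart from WT F2 the estimates moved little in these runs, such as -1.72 to -1.54 for Rspo3 and -1.22 to -1.16 for Apcdd1. All 4 were called without either M2 library or with the pair as a block. In Sox2-detected and in Eomes-detected cells 0 of 4 were called without any 1 of WT F2 and Chd8 het M1, F1 and F2. In each of these 2 sums 1 was called without WT M1, and without WT F1 it was 2 in Sox2-detected and 1 in Eomes-detected cells. With the block, Wnt8b (-1.55, adjusted p 0.0657) and Apcdd1 (-1.22, 0.05004) were no longer called in Eomes-detected cells. Fitted on that stage alone, none was called in these 3 sums, with estimates such as -1.60 for Rspo3 and -1.20 for Apcdd1 in all retained cells, and Rspo2 was not tested there. Without the 3 E12.5 libraries that stood apart 1 Chd8 het library remains, so the absence of calls says nothing, and the estimates were -3.37 for Rspo2, -1.56 for Rspo3, -1.20 for Apcdd1 and -0.76 for Dkk3.

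In WT, of the 98 tested in all retained cells 21 rose and 33 fell from E12.5 to E14.5, beside 53.3% of all genes. Of all genes 25.4% rose and 27.9% fell. Among 19 cytoplasmic genes 7 rose and 0 fell, among 17 receptors 0 rose and 9 fell, among 14 ligands 2 rose and 7 fell, and among 17 inhibitors 3 rose and 10 fell. Of 18 nuclear genes 5 rose and 1 fell, and of 13 other targets 4 rose and 6 fell. Differences between the roles were not tested. Apc2, the neuronal relative of Apc, rose from 18.6 to 71.7 CPM (+1.84), while Wnt8b fell from 22.7 to 0.164 (-7.14), the target Tnfrsf19 from 70.9 to 15.4 (-2.32) and Ccnd1, which encodes cyclin D1, from 152 to 37.0 (-2.15). These sums mix cell types whose shares change with stage, and that part was not tested.

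Across the 12 WT means of the 3 exclusive cell groups and 4 stages, the gene most like Apc among 8607 genes of at least 10 CPM was Gabbr1 (Pearson r 0.984, and 0.950 over the 12 Chd8 het means). For Tcf7l1 it was Fhl1 (0.990 and 0.951), for Tcf7l2 Cmss1 (0.984 and 0.872), for Lef1 the non-coding Rmst (0.952 and 0.947), for Ctnnb1 Aimp1 (0.949 and 0.894), for Nkd1 Ucp2 (0.890 and 0.838) and for Lrp6 Tbc1d20 (0.876 and 0.427). The next 2 genes were 4930402H24Rik and Nenf for Apc, Rpa1 and Alg8 for Tcf7l1, Rad21 and Ncapg2 for Tcf7l2, Lpar6 and Prmt1 for Lef1, Ccdc136 and Por for Ctnnb1, Nr2f2 and Tstd3 for Nkd1, and Crbn and Hinfp for Lrp6. Among the members themselves, over the same 12 means, Apc and Tcf7l1 ran most opposed (r = -0.906), Tcf7l2 and Axin2 went together (0.788), as did Lef1 and Sp5 (0.753). These 12 points share libraries and depth, and the values are descriptions only. Tcf7, Axin2 and Sp5 were under the 10 CPM minimum.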

How the data were processed

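The deposited matrices hold counts of UMIs per gene and barcode for 32 libraries made with 10x 3′ chemistry. STAR 2.7.9a, STARsolo, Cell Ranger and the build mm10 are named per the submitters' processing notes, and how the authors called cells is not given in the sources used here. Barcodes below 1000 UMIs or 500 genes, or above 10% of UMIs from mitochondrial genes, were dropped, and doublets were removed by their share of simulated neighbours (20 neighbours, 0.8% per 1000 cells), which took 5471 of 143697 cells. Counts were summed per library and cell group. The sums were tested with edgeR 4.0.16 (TMM, low-count filter, robust quasi-likelihood fit over all 32 libraries with 1 coefficient per stage and genotype), and adjusted by Benjamini-Hochberg over all genes tested, with a threshold of 0.05. DESeq2 1.42.0 was an alternative, among other filters, scalings and cell definitions. P-values without a block measure the spread between libraries labelled as separate embryos, which the main fit took over all stages and genotypes. P-values with the pair or the library as a block measure the spread of differences within pairs or within libraries.

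Partners share a litter and sex per the labels, and deviated together in 16 of 16 pairs (r 0.151 to 0.870 over 8625 genes). The best match was the own partner in 13 of 16, but not for M1 and F1 at E12.5. Because of the shared litter, a fit with the pair as a block is given where it changes a call. The members, the marker lists and the other pathway genes were chosen with earlier results of these data known. All members are named, and other pathway genes are examples with the largest fold among those called. On simulated counts for the E12.5 genotype comparison in Sox2-detected cells, 83 of 100 genes changed by a fold of 2 and 42 of 100 changed by a fold of 1.5 were recovered, and 62 and 22 of 100 in Neurod6-detected cells. Each of these comparisons had 7 false calls. The simulated libraries varied independently, without a group that stood apart, and the changed genes were drawn from all levels. These shares therefore do not give the recovery of low members such as Tcf7 and Sp5. Scripts ran in R 4.3.3 and Python 3.11.15.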

Additional observations from a re-analysis of the deposited data

Results flagged for a closer look

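In 18 of 240 groups of 4 libraries, a member's highest or lowest library lay farther from the others than Dixon's 95% critical value allows. Chance alone flags about 1 group in 20. Levels are CPM.

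In Sox2-detected cells at E12.5, Lrp6 in WT M2 was low at 23.54 beside 29.2 to 29.53. Lef1 in Chd8 het F1 was high at 65.36 beside 43.11 to 46.37, and Nkd1 in Chd8 het M2 was high at 16.12 beside 12.91 to 13.23. Axin2 in WT M2 at E14.5 stood at 9.121 beside 5.862 to 6.339. At E17.5 WT M1, a library that stood apart in Malat1 as well, was high for Apc at 104.6 beside 42.2 to 51.59 and for Axin2 at 16.11 beside 7.538 to 8.746.

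In Eomes-detected cells, Lrp6 in Chd8 het F2 at E14.5 was low at 26.05 beside 30.33 to 30.73, and Sp5 in Chd8 het M2 at E14.5 was at 0.7125 where the other 3 libraries held 0 UMIs. At E16.0 Lef1 in WT F1 was low at 3.009 beside 4.19 to 4.369, and Tcf7l2 in WT F2 was high at 17.33 beside 13.17 to 13.74.

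In Neurod6-detected cells at E12.5, Chd8 het M2 was high for Tcf7l1 at 18.82 beside 4.61 to 6.647 and for Tcf7l2 at 11.73 beside 2.669 to 3.931. Tcf7l2 in Chd8 het F1 at E14.5 was at 9.87 beside 3.895 to 4.784. At E16.0 Tcf7 in WT F2 was at 1.831 beside 0.8121 to 0.9698, Nkd1 in WT M1 at 21.56 beside 18.59 to 19.09 and Sp5 in Chd8 het M1 at 0.3161 beside 0.08549 to 0.1001. At E17.5 Apc in WT M1 was at 163.9 beside 69.01 to 78.0, and Lef1 in WT F2 at 2.487 beside 1.257 to 1.291.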

How the results depend on the processing

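Values follow for each result that crossed the threshold or moved by over 1.5 times under an alternative. The cause was not tested. With the replicate block, the Chd8 log2 fold change averaged over stages was -0.28 in all cells, -0.26 in Sox2-detected, -0.27 in Eomes-detected and -0.30 in Neurod6-detected cells, now past the threshold. With DESeq2 it was -0.27, -0.26 and -0.27 in the first 3 and past it too, and without the 3 E17.5 libraries that stood apart -0.32 in all cells, -0.28 in Eomes-detected and -0.33 in Neurod6-detected cells.

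Members lower in Chd8 het at E12.5, 0 otherwise, numbered 4, 5 and 1 in all, Sox2-detected and Eomes-detected cells with the replicate block, beside 13.2%, 15.6% and 6.75% of all genes called. Without pair M2 they numbered 5, 6, 5 and 5 in all, Sox2-, Eomes- and Neurod6-detected cells, where 25.6%, 29.6%, 19.6% and 18.7% of all genes were called. With the block in Sox2-detected cells they numbered 1 without pair M1 (0.917% of genes) and 2 without Wnt8b-detected cells (13.9%). The count was 1 in Sox2-detected cells after thinning to 1000 UMIs (Sp5, 0.461%) and 1 in Eomes-detected cells without the 3 E17.5 libraries (Axin2, 2.54%). At E17.5 DESeq2 called 1 higher in Neurod6-detected cells.

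In the WT course, E14.5 against E12.5 gave 0 higher members in Sox2-detected cells with no filter, with 2 UMIs of the marker or in cells with exactly 1 marker, and 1 after thinning. In Eomes-detected cells it gave 2 higher without the 3 E17.5 libraries, and 3, 0 and 1 lower with 2 UMIs, 1 marker and thinning. In Neurod6-detected cells it gave 0 higher with 1 marker. E16.0 against E14.5 gave 1 higher in all cells without the 3 libraries, 2 lower in Sox2-detected cells after thinning, 0 higher in Eomes-detected cells with no filter, no doublet removal, 1 marker or thinning and 0 lower with 1 marker, and 1 higher in Neurod6-detected cells with 1 marker, thinning or without the 3 libraries. E17.5 against E16.0 gave 2 higher in Sox2-detected cells after thinning, and in Eomes-detected cells 1 higher with DESeq2 and 0 lower with 1 marker. E17.5 against E12.5 gave 1 higher and 1 lower in Eomes-detected cells with 1 marker, 3 lower there after thinning, and 2 higher in Neurod6-detected cells with 2 UMIs, 1 marker or thinning. Neurod6-only against Eomes-only cells gave 2 higher with no filter, 2 UMIs, thinning or without the 3 libraries, and cycling cells 1 lower in cells without Eomes and Neurod6. The shares of all genes called under these settings are not given here. Whether these counts moved with the whole fit was not tested.

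Reversed were Nkd1 from E14.5 to E16.0 in Sox2-detected cells (0.0397), and Lef1 from E16.0 to E17.5 (0.32) and Nkd1 from E12.5 to E17.5 (0.11) in Eomes-detected cells, each with exactly 1 marker. So were Tcf7 from E12.5 to E17.5 in Neurod6-detected cells after thinning (0.0128), and Nkd1 in cycling cells (0.16). Lrp6 in Neurod6-only against Sox2-only cells ran from -0.107 to 0.0286 with 1 library left out at a time.

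With 1 library left out at a time, members lower in Chd8 het at E12.5 numbered 0 to 1 in all, 0 to 1 in Sox2-, 0 to 3 in Eomes- and 0 to 4 in Neurod6-detected cells (1, 1, 3 and 4 without Chd8 het M2, where 8.99%, 13.3%, 9.2% and 9.32% of all genes were called), 0 to 1 averaged over stages in all cells, and 0 to 1 were higher at E17.5 in Neurod6-detected cells. Chd8 in Eomes-detected cells ranged from -0.29 to -0.24. In the WT course, E14.5 against E12.5 gave 0 to 2 higher and 3 to 5 lower in Sox2-detected, and 1 to 2 higher and 3 to 5 lower in Eomes-detected cells. E16.0 against E14.5 gave 2 to 4 lower in all cells, 0 to 1 higher in Sox2-, 0 to 1 higher and 1 to 3 lower in Eomes-, and 1 to 3 lower in Neurod6-detected cells. E17.5 against E16.0 gave 2 to 4 higher in Sox2- and 0 to 1 higher in Eomes-detected cells, E17.5 against E12.5 gave 1 to 2 higher in Eomes-detected cells, and Neurod6-only against Eomes-only cells gave 1 to 3 higher, where the dispersion trend of the full fit was reused. For the WT course and the cell sets, the shares of all genes in these runs are not given here either.

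Over all genes, 199 were called at E12.5 in Sox2-detected cells, 965 with DESeq2, 2159 with the replicate block, 62 with no filter, 55 after thinning, 0 with the stage fitted alone, 1862 without Chd8 het M2, 14 without WT F2, 590 without the 3 E17.5 libraries and 1 without the 3 E12.5 libraries that stood apart, which leaves 1 Chd8 het library at E12.5, assumed to vary like the other groups. Averaged over stages 66 were called there, 244 with the block, 128 with DESeq2, 28 with no filter and 13 after thinning. Depth limits the low members: the WT Sox2-detected sums of E17.5 held 18 UMIs of Sp5, 34 of Tcf7 and 35 of Lef1. Leaving out libraries, E12.5 pairs or Wnt8b-detected cells because of what the data showed was chosen after seeing the data.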

Other observations

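At E17.5, vessel and meningeal cells carried several of these genes at levels far above those of the whole tissue. Cells were taken as endothelial, pericyte-like and so on when at least 3 markers of that list were detected. They were summed over the 8 libraries of a stage, both genotypes together, with exact 95% Poisson intervals that cover counting error only. In 176 endothelial cells at E17.5, Lef1 stood at 134 CPM (interval 120 to 149) where all retained cells averaged 3.72. In the same cells Nkd1 stood at 264 CPM (244 to 285) beside 15.1, Tcf7 at 71.4 (61.3 to 82.7) beside 2.34, and Axin2 at 40.7 (33.2 to 49.5) beside 7.28. At E12.5, 175 endothelial cells already held Tcf7 at 35.9 CPM and Ctnnb1 at 548 CPM, beside 3.46 and 274 in all cells. Lef1 and Nkd1 were higher there too, at 93.72 and 38.48 CPM beside 44.61 and 20.48. Axin2 was about level at that stage, at 9.425 CPM beside 8.756. Sp5, at 1.047 CPM beside 14.66, and Tcf7l1, at 17.54 beside 25.13, were lower in these endothelial cells than in all cells. The 191 pericyte-like cells at E17.5 had Lef1 at 79.1 CPM, Axin2 at 76.7 and Nkd1 at 174. Meningeal fibroblast-like cells, 63 at E17.5, had Lef1 at 86.87 CPM, Nkd1 at 157.4, Axin2 at 56.66 and Tcf7 at 51.62. At E12.5, 364 such cells had Nkd1 at 112.8 CPM and Axin2 at 36.61, but Lef1 at 33.65 beside 44.61 in all cells.

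Hem-like cells, 243 at E12.5, carried Sp5 at 91.3 CPM, Nkd1 at 112 and Axin2 at 42.2. Oligodendrocyte precursor-like cells, 211 at E17.5, had Nkd1 at 80.3 CPM. Microglia-like cells, 102 at E16.0, held 0 UMIs of Tcf7, Lef1, Tcf7l1, Axin2 and Sp5, with an interval that reaches up to 5.02 CPM, and Tcf7l2 at 23.2 CPM. At E17.5, 91 such cells held 3 UMIs of Lef1, 2 of Tcf7l1, 1 of Tcf7 and 0 of Axin2 and Sp5, with Tcf7l2 at 43.0 CPM. Interneuron-like cells had Apc at 115, 122 and 147 CPM at E14.5, E16.0 and E17.5, with Lef1 at or below 1.90 CPM. These sums mix libraries in unequal numbers and were not tested.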
